A study of Arabidopsis thaliana with 6 samples.

Results

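Fatty acid desaturases of Arabidopsis thaliana were followed in seedlings that had or had not passed through a long cold period. The members were taken from the table by gene identifier: *FAD2* (AT3G12120), *FAD3* (AT2G29980), *FAD5* (AT3G15850), *FAD6* (AT4G30950), *FAD7* (AT3G11170), *FAD8* (AT5G05580), *ADS1* (AT1G06080), *ADS2* (AT2G31360), *SSI2*/*FAB2* (AT2G43710) and *SAD6* (AT1G43800), 10 genes in all. Of these, 9 were found among the 18368 genes used, and *ADS2* is not analysed here. RNA was sequenced from whole seedlings of the wild-type accession Col-0 in 3 libraries a group, each from its own plate. Vernalized seedlings (4v) spent 7 days at 22 °C followed by 28 days of cold at 5 °C. Non-vernalized seedlings (0v) were kept at 22 °C throughout and taken at 11 days. Both groups grew on half-strength MS medium in long days. Since 4v seedlings were 35 days old and 0v seedlings 11 days old, age and cold cannot be told apart.

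A desaturase places a double bond at a fixed carbon of a fatty acid. In plants the first double bond is made in the plastid stroma on a saturated acyl chain bound to acyl carrier protein, and later ones are made on chains already held in membrane lipids. One set of membrane enzymes works in the endoplasmic reticulum and another in the plastid envelope, and more double bonds keep a membrane fluid at low temperature. Plants are therefore known for more polyunsaturated membranes in the cold. Transcript level is only 1 of the steps that set enzyme amount, and neither enzymes nor lipids were measured in these libraries.

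The values are normalized counts, that is, reads of a gene divided by 1 size factor per library. The libraries held between 1636687 and 23141488 reads, and each group had 1 deep library, 4v replicate 2 and 0v replicate 3. In 0v the deep library stood apart. With reads thinned to equal depth, it differed from 0v replicates 1 and 2 by a median of 0.40 and 0.39 on the log2 scale, against 0.27 between these, and the 4v libraries differed from each other by 0.25 to 0.27. Root markers were present at 60.4 to 128 normalized counts summed over 5 genes in 4v and at 152 to 323 in 0v, with no overlap. This sum rests mainly on *CASP1*, with a mean of 63.9 in 4v and 159.6 in 0v, and *TIP2;3*, at 1.49 and 78.01. *TIP2;3* was at 0 in a 4v library. The groups overlapped in *EXPA18*, *COBL9* and *EXPA7*. The means of *EXPA18* (12.2 in 4v, 10.4 in 0v) and *COBL9* (8.11 and 5.83) were higher in 4v, and that of *EXPA7* was lower. Summed green shoot markers overlapped, at 304389 to 582515 in 4v and 293211 to 552259 in 0v, but the sum rests mainly on *CAB1* (log2 fold change 0.58). The 5 markers had a median log2 fold change of -0.92, with *CAB3* at -0.92, *RCA* at -0.97 and *LHCB5* at -0.94, and their part in the values of the plastid desaturases was not tested. None of the 5 passed in limma. At an unadjusted p under 0.05, 1 was lower and 0 higher, beside 15.5% and 16.5% of all genes. *CAB3*, *RCA* and *LHCB5* were called lower by DESeq2, beside 8.28% of all genes, and in limma without 0v replicate 3, beside 8.58%. None of the 7 seed markers had a row. The part of tissue make-up in the values below was not tested, and in whole seedlings fewer cells of a type and less RNA per cell cannot be told apart.

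*FAD7*, *FAD8* and *FAD3* make the same omega-3 double bond and are close in sequence, so their sequences are shown first, as they bear on whether their reads can be told apart. *FAD7* and *FAD8* work in the plastid and *FAD3* in the endoplasmic reticulum. The lines below give 60 coding bases of each from the TAIR10.1 RefSeq genome. They lie around a 17-base run shared by all of them, and hold the second histidine-rich box that binds the iron of the active site. Capitals mark the 48 bases that are identical in *FAD7*, *FAD8* and *FAD3*, and each stretch spans an intron.
FAD7, chr3:3500842-3500982, plus strand: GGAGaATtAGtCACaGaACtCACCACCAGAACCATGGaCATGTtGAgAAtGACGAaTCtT
FAD8, chr5:1664987-1665160, plus strand: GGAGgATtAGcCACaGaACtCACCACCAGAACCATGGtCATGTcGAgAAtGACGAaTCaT
FAD3, chr2:12783321-12783926, minus strand: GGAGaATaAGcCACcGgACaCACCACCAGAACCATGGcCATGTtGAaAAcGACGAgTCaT
In this stretch *FAD8* matches *FAD7* at 55 bases and *FAD3* matches it at 50. Over the aligned coding sequence *FAD7* and *FAD8* were 85.27% identical, and *FAD3* was 70.88% identical to *FAD7* and 71.62% to *FAD8*.

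Windows as long as a 75-base read that occur without a mismatch in both *FAD7* and *FAD8* make up 0.645% of the *FAD7* transcript and 0.729% of the *FAD8* transcript. For windows of 31 bases the shares were 3.08% for *FAD7* and 3.53% for *FAD8*. No other desaturase shared a window of either length with any gene. *FAD8* also overlaps AT5G05590 on the opposite strand by 61 bases, and the sources used here do not say whether the counting used strand.

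Levels were compared between genes per kb of transcript. *FAD2* had the highest level in both groups, at 1569 ± 143 normalized counts per kb in 4v and 2567 ± 286 in 0v (SD, n = 3 each). *FAD6* was next, at 870 ± 123 per kb in 4v and 1394 ± 177 in 0v. In 4v the order went on with *SSI2* at 561, *FAD7* at 368, *FAD3* at 298, *FAD5* at 263 and *FAD8* at 120 per kb, and ended with *ADS1* at 12 and *SAD6* at 6.44. In 0v *FAD5* at 607 and *FAD7* at 558 stood before *SSI2* at 462 per kb, and *FAD3* at 259, *FAD8* at 76.6, *ADS1* at 63.5 and *SAD6* at 11.1 followed. Neighbours whose libraries overlapped were *FAD7* and *FAD3*, *FAD3* and *FAD5*, and *ADS1* and *SAD6* in 4v. In 0v they were *FAD5* and *FAD7*, *FAD7* and *SSI2*, *FAD8* and *ADS1*, and *ADS1* and *SAD6*. The level of *SSI2* lay above those of *FAD7* and *FAD5* in every 4v library and in 0v replicate 3, and below both in 0v replicates 1 and 2.

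**Figure D1:**
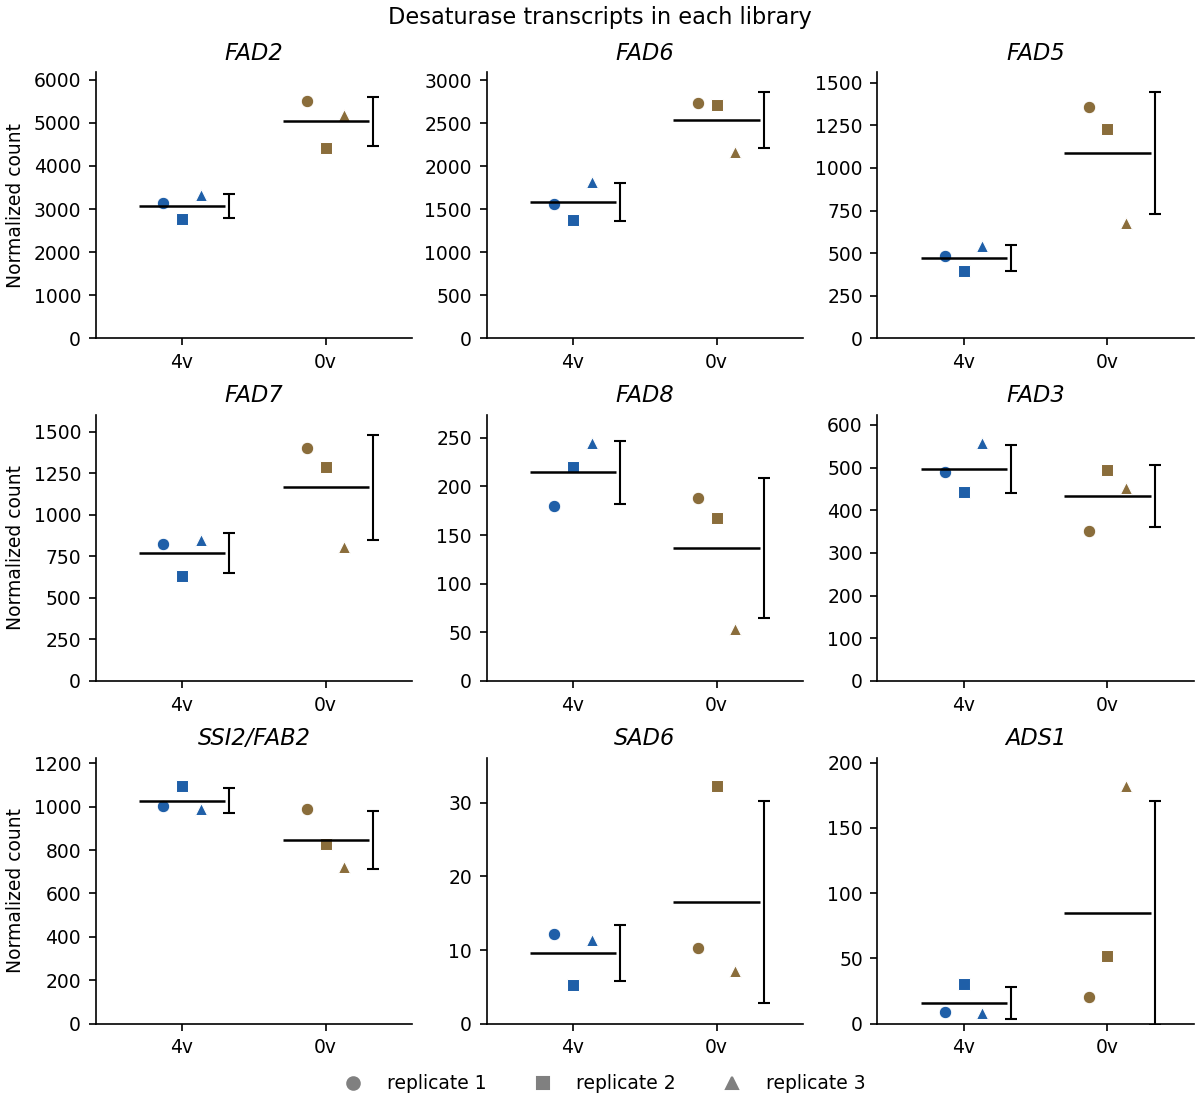
Normalized counts (vertical axis, from 0, with a scale of its own in each panel) of the 9 desaturase genes in the 3 libraries of 4v (blue, left) and of 0v (brown, right). Symbols are replicates, horizontal lines are means and bars are SD, and the bar of *ADS1* in 0v is drawn down to 0. The groups are apart in *FAD2*, *FAD6* and *FAD5*, with all 4v points below all 0v points, and overlap in the other 6 genes.

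Comparing 4v with 0v, 3 of the 9 desaturases fell and none rose at an adjusted p under 0.05 in limma, beside 6.99% of all genes tested that were lower in 4v and 6.46% that were higher. Those that fell were *FAD2*, *FAD6* and *FAD5*. They make the second double bond in the endoplasmic reticulum, the second double bond in the plastid, and the double bond of plastid palmitate. Over the 9 genes the log2 fold changes had a median of -0.57, against 0.048 over all 16771 genes tested. At an unadjusted p under 0.05 limma placed 5 desaturases lower and 0 higher in 4v, beside 15.5% of all genes lower and 16.5% higher. By adjusted p, edgeR, DESeq2 and limma-voom on the recovered reads each gave 3 lower and 0 higher. Of all genes, edgeR called 7.17% lower and 5.64% higher, DESeq2 8.28% and 6.56%, and limma-voom 13.8% and 14.9%. The groups did not overlap in 3 of the 9 genes, all lower in 4v, where 18.7% of all genes tested lay wholly lower and 20.5% wholly higher.

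*FAD2*, the oleate desaturase of the endoplasmic reticulum and the source of most linoleate there, had 3146, 2771 and 3319 normalized counts in 4v replicates 1, 2 and 3, against 5513, 4417 and 5180 in 0v. Every 4v library lay below every 0v library, and the spread within a group was 9.09% of the mean in 4v and 11.2% in 0v. The mean was 3079 ± 280 in 4v and 5037 ± 562 in 0v (SD, n = 3 each). The log2 fold change was -0.71 ± 0.16 (SE), a level 0.612 of that in 0v, with a 95% interval of -1.09 to -0.32 and an adjusted p of 0.0329 in limma. The deep library of 4v had 2771 against 5180 in that of 0v, so the deep pair alone had the same order.

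*FAD6*, the plastid counterpart of *FAD2*, had 1565, 1371 and 1820 normalized counts in 4v, against 2738, 2716 and 2168 in 0v. Here too the groups were apart, with 4v replicate 3 and 0v replicate 3 closest to each other. The mean was 1586 ± 225 in 4v and 2541 ± 323 in 0v (SD, n = 3 each), a log2 fold change of -0.68 ± 0.17 (SE; 95% interval -1.08 to -0.28) with an adjusted p of 0.0415 in limma. Here and below, ratios within a library were taken per kb with 4 added to each normalized count. The ratio of *FAD2* to *FAD6* was 1.86, 1.87 and 1.69 in 4v and 1.87, 1.51 and 2.22 in 0v. The groups overlapped, and the log2 difference was -0.027 (exact permutation test, two-sided, p = 0.9, Benjamini-Hochberg adjusted over 4 ratios 0.9). It was 0.11 without 0v replicate 3 and 0.021 without 4v replicate 3.

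*FAD5* encodes the plastid enzyme that desaturates palmitate on monogalactosyl diacylglycerol, the first step to the trienoic chain typical of chloroplast membranes. It had 481, 394 and 539 normalized counts in 4v, against 1355, 1226 and 678 in 0v. All 4v libraries were lower, and 0v replicate 3 lay nearer to 4v than the other 0v libraries did, so that the spread in 0v was 33.1% of the mean. The mean was 471 ± 73.4 in 4v and 1087 ± 359 in 0v (SD, n = 3 each). The log2 fold change was -1.15 ± 0.28 (SE; 95% interval -1.80 to -0.50), a level 0.451 of that in 0v, with an adjusted p of 0.037 in limma. Of all genes tested, 6.53% had a more negative log2 fold change.

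These calls lay close to the threshold. Leaving out any 1 of 4v replicates 1, 2 and 3 and 0v replicates 1 and 2 left 0 of them, with adjusted p up to 0.122 for *FAD2*, 0.116 for *FAD5* and 0.139 for *FAD6* in limma, while 2.39% to 4.50% of all genes were still called lower. Without 0v replicate 3 there were 4 calls, *FAD2*, *FAD5*, *FAD6* and *FAD7*, beside 8.58% of all genes, and the log2 fold changes of the 3 genes stayed between -1.46 and -0.58 whichever library was left out.

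**Figure D2:**
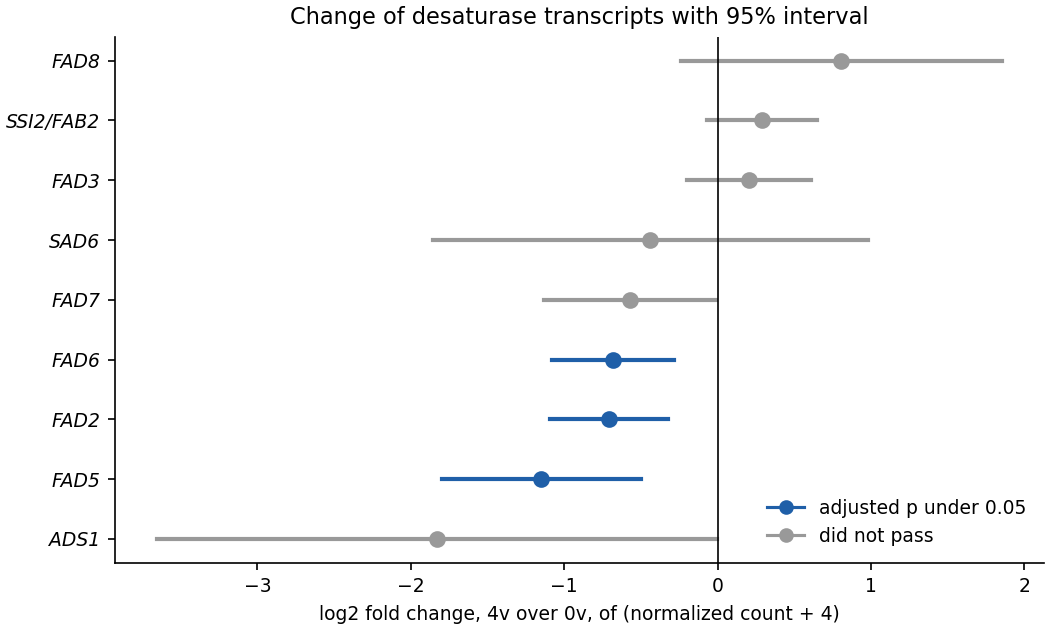
Log2 fold change of 4v over 0v on normalized counts plus 4 (horizontal axis) for each desaturase (rows), with points for the limma estimate and lines for its 95% interval. Blue genes had an adjusted p under 0.05 and grey genes did not. The intervals of *FAD2*, *FAD6* and *FAD5* lie below 0 and those of *FAD3*, *SSI2*, *FAD8* and *SAD6* include 0, while those of *FAD7* and *ADS1* end at the edge of 0.

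*FAD7*, the main plastid omega-3 desaturase at moderate temperature, had 825, 632 and 849 normalized counts in 4v, against 1403, 1287 and 805 in 0v. The groups overlapped through 0v replicate 3 alone, which lay among the 4v libraries. Its log2 fold change of -0.57 ± 0.24 (SE; 95% interval -1.13 to -0.0084) did not pass, with an adjusted p of 0.151 in limma. The adjusted p in limma was 0.0199 without 0v replicate 3, with a log2 fold change of -0.81, and 0.034 in the 4 shallow libraries alone.

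*FAD8*, the second plastid omega-3 desaturase, is known in Arabidopsis for transcripts that accumulate at low temperature. It had 180, 219 and 244 normalized counts in 4v, against 188, 168 and 53.9 in 0v. The 4v library with the least lay below the 0v library with the most, and 0v replicate 3 was far below all others, on 205 reads. The log2 fold change was 0.81 ± 0.44 (SE) with a 95% interval of -0.24 to 1.85 and an adjusted p of 0.257 in limma, an interval that holds both no change and a rise of up to 3.61-fold. Without 0v replicate 3 the log2 fold change was 0.26. Its opposite-strand neighbour AT5G05590 had 30.5, 60.4 and 45.4 normalized counts in 4v and 0, 0 and 51.3 in 0v, and its part in the *FAD8* counts was not tested.

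The balance of *FAD8* to *FAD7*, isozymes of the same step, was also compared within each library. The ratio of *FAD8* to *FAD7* was again per kb with 4 added to each normalized count. It was 0.260, 0.412 and 0.341 in 4v, against 0.160, 0.156 and 0.0840 in 0v. All 4v ratios lay above all 0v ratios, and apart from the added 4 the ratio needs no library size. The log2 difference was 1.37, or 2.59-fold, with p = 0.1 in a two-sided exact permutation test, the smallest p that 3 against 3 libraries allow, and 0.4 after Benjamini-Hochberg adjustment over 4 ratios. A design of this size cannot reach 0.05. Leaving out any 1 library kept the difference between 1.07 and 1.55, the lowest without 0v replicate 3. It was 0.91 in the 4 shallow libraries alone and 1.40 with 1 added in place of 4.

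*FAD3*, the omega-3 desaturase of the endoplasmic reticulum, had 490, 443 and 557 normalized counts in 4v, against 352, 494 and 453 in 0v. The groups overlapped and the log2 fold change was 0.20 ± 0.17 (SE; 95% interval -0.20 to 0.61; adjusted p 0.454, limma). Of the per-kb sum of the 3 omega-3 genes, *FAD3* made up 37.2%, 38.4% and 38.04% in 4v and 21.3%, 29.4% and 39.5% in 0v. *FAD7* made up 50.01%, 43.8% and 46.3% in 4v, against 68.0%, 61.2% and 56.1% in 0v. The share of *FAD8* was 12.8%, 17.8% and 15.6% in 4v, against 10.7%, 9.36% and 4.41% in 0v. The groups did not overlap in the shares of *FAD7*, lower in 4v, and *FAD8*, higher in 4v. In normalized counts, 18.7% of all genes tested lay wholly lower and 20.5% wholly higher in 4v. Both shares come from the same sum and largely restate the ratio of *FAD8* to *FAD7*, so they add no support, and they were not tested. The groups overlapped in the share of *FAD3*, which was alike in the 4v libraries and spread in 0v. The ratio of *FAD3* to the sum of both plastid genes had a log2 difference of 0.54 (exact permutation test, two-sided, p = 0.4, Benjamini-Hochberg adjusted 0.8). It was 0.85 without 0v replicate 3 and 0.22 without 0v replicate 1.

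**Figure D3:**
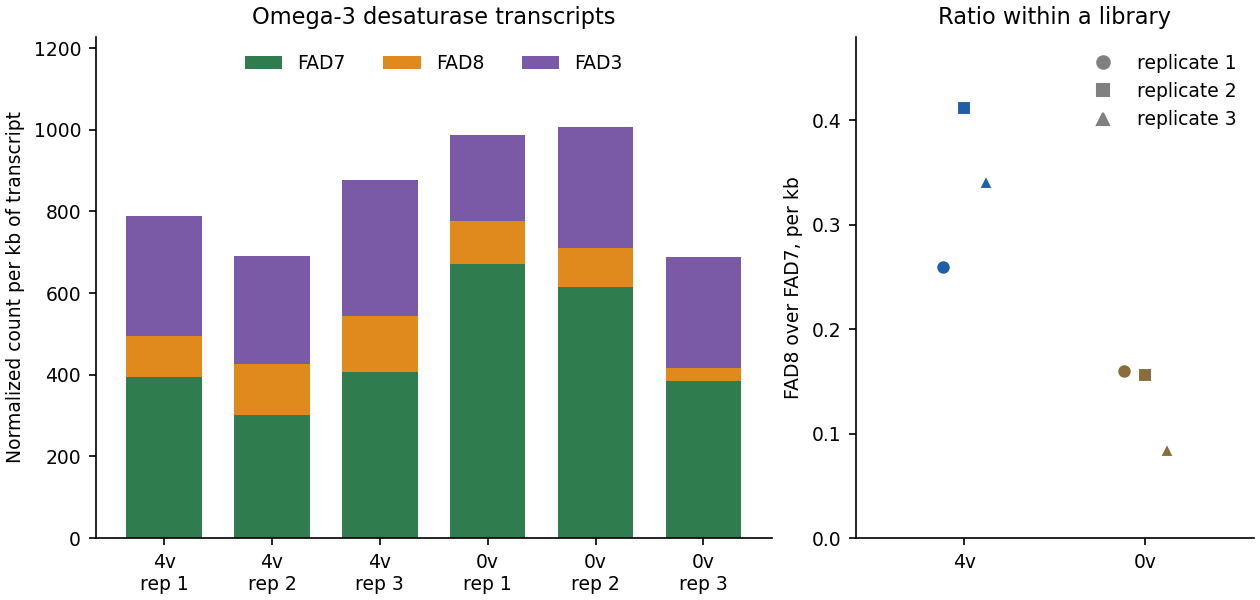
Left, normalized counts per kb of transcript (vertical axis) of *FAD7*, *FAD8* and *FAD3* stacked in each library, 4v libraries first. Right, the per-kb ratio of *FAD8* to *FAD7*, with 4 added to each normalized count, in each library of 4v (blue) and 0v (brown). Symbols are replicates. The 4v ratios lie between 0.260 and 0.412, all above the 0v ratios of 0.0840 to 0.160.

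The soluble desaturases make the first double bond, on stearate bound to acyl carrier protein. *SSI2*, also named *FAB2*, the major one in Arabidopsis leaves, had 1002, 1095 and 988 normalized counts in 4v, against 990, 829 and 721 in 0v. Only 4v replicate 3 and 0v replicate 1 overlapped, and narrowly. The log2 fold change was 0.29 ± 0.15 (SE; 95% interval -0.07 to 0.65; adjusted p 0.238, limma), so a fall larger than 0.07 on the log2 scale lies outside the interval. *SAD6*, an isozyme known from low-oxygen responses, had 12.2, 5.27 and 11.4 normalized counts in 4v and 10.2, 32.3 and 7.10 in 0v. These are 4, 26 and 4 reads in 4v and 3, 10 and 27 in 0v, and no change was detected (log2 fold change -0.44, 95% interval -1.86 to 0.98, adjusted p 0.652, limma). The log2 difference of the *SAD6* to *SSI2* ratio was -0.73 (exact permutation test, two-sided, p = 0.6, Benjamini-Hochberg adjusted 0.8). It was -0.21 without 0v replicate 2, -0.43 without 4v replicate 2 and -1.01 without 0v replicate 1. With 1 added in place of 4 it was -0.81.

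*ADS1* belongs to the family of *FAD5* and is related to the acyl-CoA desaturases of animals and yeast. It had 9.14, 30.4 and 8.52 normalized counts in 4v, against 20.5, 51.6 and 182 in 0v. This was 3, 150 and 3 reads in 4v and 6, 16 and 692 in 0v, so 4 of the 6 values rest on 16 reads or fewer. In each group the deep library had the highest value, and the groups overlapped. The log2 fold change of -1.83 ± 0.78 (SE) had a 95% interval of -3.65 to -0.0040 and did not pass (adjusted p 0.156, limma). Without 0v replicate 3 it was -1.05.

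*FAD5* had the largest fall among the called desaturases, and the genes most like it over the 6 libraries were looked up among 12019 genes with a mean of at least 50. The measure was the mean absolute difference of centred log2 values. The nearest was *DXS*, which encodes the first enzyme of the plastid isoprenoid pathway, at 0.045. It had 1221, 1020 and 1332 normalized counts in 4v, against 3502, 3049 and 1903 in 0v, the same order of libraries as *FAD5* within each group. AT1G16080 followed at 0.072 and AT2G05310 at 0.073.

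The other genes of the pathway were taken as 5 lists of 82 genes, of which 74 had values and 69 were tested. Of these 3 rose, 6 fell and 60 did not pass in limma, with a median log2 fold change of -0.13, beside 6.46% of all genes higher and 6.99% lower. Without 0v replicate 3, 5 rose and 10 fell, beside 9.06% and 8.58% of all genes. None of 6 tested desaturases outside the 10 genes had a call (median -0.51). At an unadjusted p under 0.05, 1 of them was higher and 2 were lower, beside 16.5% and 15.5% of all genes. After adjustment DESeq2 called 0 higher and 2 lower, edgeR called none and limma-voom called 1 higher and 2 lower, beside the shares of all genes given above for each tool. Among them *FAD4*, which makes the trans double bond of plastid phosphatidylglycerol and was picked out after its values were seen, had 63.9, 49.4 and 45.4 normalized counts in 4v and 273, 135.5 and 35.5 in 0v. Its 0v libraries lay on both sides of 4v, with replicate 3 the lowest of all.

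Desaturases take electrons from cytochrome b5 in the endoplasmic reticulum and from ferredoxin in the plastid. Of 13 genes for these donors and their reductases, 4 fell and 0 rose in limma, beside 6.99% of all genes lower and 6.46% higher, with a median log2 fold change of -0.21. Unadjusted, 5 were lower and 2 higher at p under 0.05, beside 15.5% and 16.5% of all genes. By adjusted p edgeR gave 3 lower and 0 higher, DESeq2 5 and 0, and limma-voom 5 and 1, where limma-voom called 13.8% and 14.9% of all genes. *CB5-D*, a cytochrome b5, had 509, 555 and 574 normalized counts in 4v, against 1062, 932 and 1069 in 0v. The groups were far apart, and the log2 fold change of -0.90 (adjusted p 0.00806, limma) kept its call without any 1 library, at an adjusted p of at most 0.0463. *CB5-E*, another cytochrome b5, had 594, 579 and 488 in 4v, against 1014, 855 and 1145 in 0v (adjusted p 0.018 in limma, at a log2 fold change of -0.85). *CBR1*, the NADH-cytochrome b5 reductase, had 484, 538 and 500 in 4v, against 676, 684 and 733 in 0v (adjusted p 0.0487 in limma, at a log2 fold change of -0.46). The groups did not overlap in any of these 3 genes, beside 18.7% of all genes tested wholly lower in 4v. The 3 genes were named because they passed, so this adds no support. They belong to the electron route of *FAD2* and *FAD3*. In the plastid *FD1*, a ferredoxin, had 94.4, 95.7 and 119 normalized counts in 4v, against 1062, 713 and 201 in 0v. Again all 4v libraries were lower, with 0v replicate 3 the nearest (adjusted p 0.0356 in limma, at a log2 fold change of -2.34). *CBR1* lost its call without any 1 of the 6 libraries, *FD1* without any but 0v replicate 3, and *CB5-E* without 0v replicate 1 or any 4v library, at adjusted p up to 0.154.

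Upstream of the desaturases, 1 of 21 tested genes of plastid fatty acid synthesis fell and 0 rose in limma (median -0.26), beside 6.99% and 6.46% of all genes. Unadjusted, 8 were lower and 0 higher, beside 15.5% and 16.5% of all genes. By adjusted p edgeR gave 1 lower, DESeq2 3 and limma-voom 5, each with 0 higher. Of all genes these tools called 7.17%, 8.28% and 13.8% lower. *BCCP2*, a biotin carrier subunit of acetyl-CoA carboxylase, had 45.7, 26.5 and 34.1 normalized counts in 4v, against 188, 229 and 221 in 0v. Its log2 fold change of -2.48 (adjusted p 0.00273, limma) kept its call without any 1 library. *BCCP1*, the more abundant carrier subunit, had a mean of 425 in 4v and 561 in 0v and did not pass (log2 fold change -0.41, adjusted p 0.143, limma). The 3 genes of the very-long-chain elongation core had no call in limma, with 1 lower and 0 higher unadjusted. None was called by edgeR or DESeq2 and 1 was called lower by limma-voom, beside the shares of all genes given above.

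Downstream, 3 of 26 tested genes of glycerolipid assembly and trafficking rose and 1 fell in limma (median 0.13), beside 6.46% and 6.99% of all genes. Unadjusted, 7 were higher and 2 lower, beside 16.5% and 15.5% of all genes. By adjusted p edgeR and DESeq2 each gave 3 higher and 2 lower, and limma-voom 5 and 2. Of all genes limma-voom called 14.9% higher and 13.8% lower, and the shares of the other tools are given above. *CCT2*, the CTP-using enzyme that activates phosphocholine for phosphatidylcholine synthesis, had 238, 342 and 304 normalized counts in 4v, against 47.8, 77.4 and 79.7 in 0v. Its log2 fold change of 2.06 (adjusted p 0.00534, limma) kept its call without any 1 library. *CCT1*, for the same step, had a mean of 247 in 4v and 287 in 0v and did not pass (log2 fold change -0.21, adjusted p 0.355, limma). Phosphatidylcholine is the lipid on which *FAD2* and *FAD3* act. *AAPT2*, an aminoalcohol phosphotransferase of the same route, had 423, 316 and 449 in 4v, against 198, 219 and 175 in 0v (adjusted p 0.0178 in limma, at a log2 fold change of 0.98). *DGD2*, a digalactosyl diacylglycerol synthase, had 100.5, 94.8 and 88.0 in 4v, against 51.2, 38.7 and 53.9 in 0v (adjusted p 0.034 in limma, at a log2 fold change of 0.93). The groups were apart in *CCT2*, *AAPT2* and *DGD2*, with 4v above, beside 20.5% of all genes tested wholly higher. These genes too were named because they passed. *LPAT1*, also named *ATS2*, the plastid lysophosphatidic acid acyltransferase, had 289, 256 and 307 in 4v, against 427, 397 and 452 in 0v (adjusted p 0.0356 in limma, at a log2 fold change of -0.58). Leaving out 1 library ended the call of *DGD2* and *LPAT1* for each library but 0v replicate 3, and that of *AAPT2* for 4v replicates 1 and 3 and 0v replicate 1. With reads thinned to 1636687 a library *DGD2* (adjusted p 0.247, limma), *LPAT1* (0.0572) and the reductase *CBR1* (0.168) missed it, as did *DGD2* in DESeq2 (adjusted p 0.0888) and *CBR1* in edgeR (adjusted p 0.0549).

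**Figure D4:**
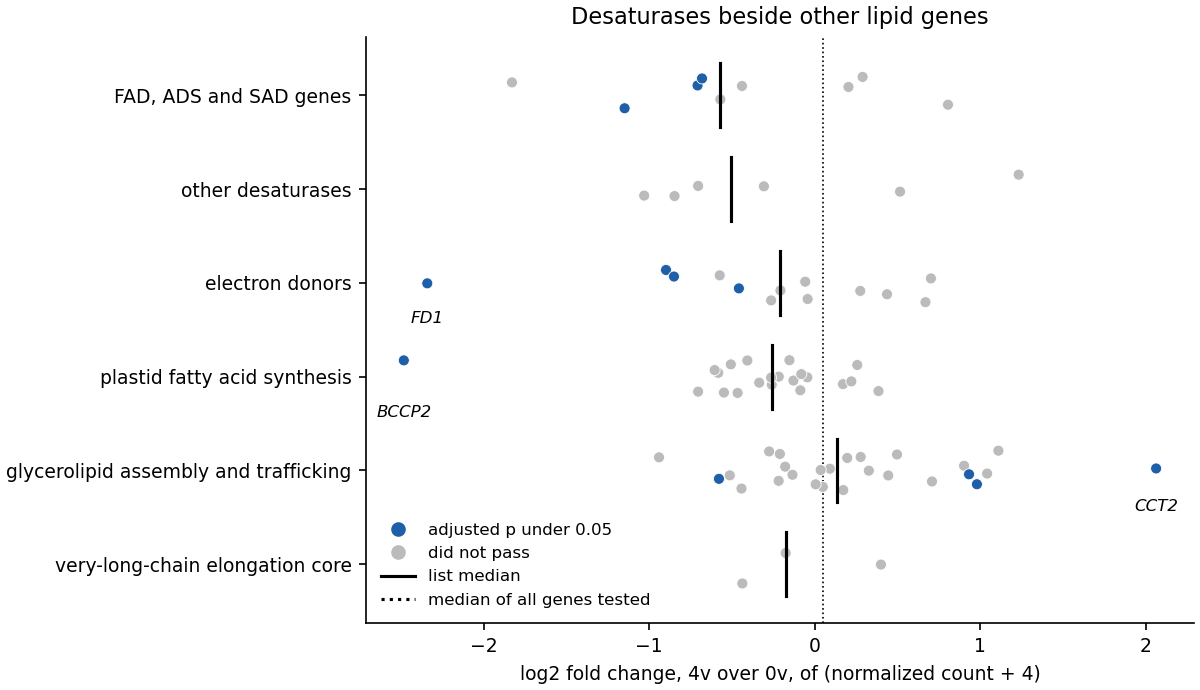
Log2 fold change of 4v over 0v on normalized counts plus 4 (horizontal axis) of each tested gene in the desaturase list and 5 lists of related lipid genes (rows, with points spread vertically for sight only). Blue points had an adjusted p under 0.05 in limma, solid lines are list medians and the dotted line is the median of all genes tested, 0.048. *FD1* and *BCCP2* lie farthest to the left at -2.34 and -2.48, and *CCT2* farthest to the right at 2.06.

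The bases upstream of the desaturases were searched on both strands for short motifs, in the 250 bases before each annotated gene start. Those of *FAD2* and *FAD6* are printed because both genes fell and neither window overlaps another gene. Capitals mark the 1 match, ACGTG, the core of abscisic acid response elements, 35 bases before the start of *FAD2*.
FAD2, chr3:3863251-3863500, minus strand: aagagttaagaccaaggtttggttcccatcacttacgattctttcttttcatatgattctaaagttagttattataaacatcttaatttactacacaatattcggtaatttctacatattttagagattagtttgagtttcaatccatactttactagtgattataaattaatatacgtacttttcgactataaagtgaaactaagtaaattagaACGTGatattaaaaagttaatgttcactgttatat
FAD6, chr4:15059847-15060096, minus strand: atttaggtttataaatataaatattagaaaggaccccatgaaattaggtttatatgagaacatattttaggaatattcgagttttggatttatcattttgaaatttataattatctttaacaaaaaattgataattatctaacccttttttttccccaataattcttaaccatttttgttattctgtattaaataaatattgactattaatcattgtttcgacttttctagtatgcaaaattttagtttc
The motif ACGTG was found before 2 of the 10 desaturases, *FAD2* and *FAD3*, and before 23.67% of 18305 genes. CCGAC, the core of the cold-response element bound by CBF factors, was found before *SSI2* alone and before 13.05% of genes. CACGTG, which contains ACGTG, and the evening element AAAATATCT were before none of the 10, and before 7.413% and 2.579% of genes. A match is a description of the letters and not a measured site.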

How the data were processed

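RNA of whole Col-0 seedlings was sequenced in 3 libraries of 4v and 3 of 0v. The authors made libraries with the TruSeq mRNA kit, quantified pairs of 75-base reads with Kallisto against TAIR10 and normalized counts in DESeq2, with no versions stated. In the deposited table the signal of a gene is its count divided by 1 size factor per library. The step of 1 read gave back whole reads for 100.0% of values (tolerance 0.05 read). The counts per library limit the precision of low genes. The authors' fold changes and p-values in the same table were not used, nor were 20 columns with no sample name and 1 gene whose values are displaced.

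Genes with a mean normalized count of 10 or more, which all 9 desaturases had, were tested with limma 3.58.1 in R 4.3.3 (eBayes with trend, two-sided), after adding 4 and taking log2, with Benjamini-Hochberg adjustment over 16771 genes at 0.05. Log2 fold changes on this scale understate changes of low genes. Ratios within a library were of normalized counts plus 4, per kb of the annotated transcript, and used an exact permutation test. The planned ratio with *ADS2* was not run. The scripts were tested on simulated data. P-values measure the spread between these libraries.

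Named genes are all desaturases, up to 4 called genes a direction from each related list by smallest adjusted p, and the 3 genes most like the called desaturase with the largest fall. No desaturase was called higher, so none was looked up for a rise. Members and lists were chosen with earlier results of these data known. *FAD4*, *FD2*, *FD3*, *CCT1* and *BCCP1* were named after their values were seen. Alternatives were pseudocounts of 1 and 16, no filter or a mean of at least 50, a replicate block, quantile and TMM normalization, tests of recovered reads in edgeR 4.0.16, DESeq2 1.42.0 and limma-voom, thinning to 1636687 reads, the 4 shallow libraries alone, and leaving out each library. Sequences are from RefSeq TAIR10.1, where all 9 desaturases have the coordinates of the deposited table. They were handled in Python 3.11.15 with Biopython 1.88.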

Additional observations from a re-analysis of the deposited data

How the results depend on the processing

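The desaturases called lower (3) came to 0 with the replicate number as a block, to 1 with quantile normalization, and to 0 to 4 when 1 library was left out. None was called higher in any of 18 alternatives. Of the related lipid genes, 3 called higher became 1 with the block, 7 with limma-voom and 1 to 5 with 1 library left out. The 6 called lower became 2 with the block, 15 with limma-voom, 12 with DESeq2 and 2 to 10 with 1 library left out. Over all genes the block left 481 higher and 567 lower of 1083 and 1172, and limma-voom gave 2498 and 2318. The log2 difference of the *FAD2* to *FAD6* ratio changed sign to 0.081 in the 4 shallow libraries alone and ranged from -0.17 to 0.11 with 1 library left out. The cause was not tested.

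Each desaturase kept the sign of its log2 fold change in all alternatives. *FAD2* lost its call in 8 of 18, *FAD5* in 6 and *FAD6* in 7, and *FAD7* gained one in 2. *SAD6* was not tested at a mean of at least 50 or without 0v replicate 2. Deviations of same-numbered libraries correlated at 0.07, -0.10 and -0.10, which shows no sign of pairing by replicate number. With 3 libraries a group these values cannot settle whether replicates were paired. In the 4 shallow libraries *ADS1* rested on 3 to 16 reads and *SAD6* on 3 to 10, the fewest of the 9 desaturases. Their values also spread widely within 0v, at 101% and 82.9% of the mean. The part of depth in this spread was not tested.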
